A study of Mus musculus with 9 samples.

Results

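The genes described here encode 6 subunits of NADPH oxidases: Cybb, Cyba, Ncf1, Ncf4 and Rac2 of the phagocyte enzyme, and Nox4, a catalytic subunit found mainly outside phagocytes. They were chosen by symbol among array probe sets that carry exactly 1 gene symbol, and all 6 were measured, each by 1 probe set, out of 22180 genes in all. RNA of periprostatic fat, the adipose tissue around the prostate, was hybridised to 1 Affymetrix Mouse Gene 2.0 ST array per mouse. The animals were male C57BL/6J mice that received, from 6 weeks of age and for 12 weeks, either a high fat diet with 60% of its energy as fat (5 mice) or a low fat diet with 10% of its energy as fat (4 mice), and were killed at 18 weeks. No allele, transgene or drug distinguished the groups, and body weights were not used here. Adipocyte markers were bright in both diets, with Adipoq (the adiponectin gene) at a mean log2 value of 11.16 in high fat and 11.52 in low fat mice, whereas all 8 measured markers of prostate and seminal vesicle had group means of 6.56 or less.

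NADPH oxidases move electrons from NADPH across a membrane onto oxygen and so make superoxide. In phagocytes the membrane carries a heterodimer of Cybb (also called Nox2 or gp91phox) and Cyba (p22phox), which is silent until cytosolic proteins, among them Ncf1 (p47phox) and Ncf4 (p40phox), and a loaded Rac protein dock on it. Nox4 also pairs with Cyba but needs no cytosolic organiser, and it is known from kidney, vessel wall, fibroblasts and fat cells, where it makes mainly hydrogen peroxide. Loss of the phagocyte enzyme causes chronic granulomatous disease, and in obese fat tissue macrophages are a known source of it.

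Promoter windows, 250 bases before to 50 after an annotated start, were taken from RefSeq (GRCm38.p6) for 4 of the 6 genes, and 3 of them are printed. The annotated genes Cybb (chrX:9435252-9487766) and Nox4 (chr7:87244430-87398710) begin upstream of their windows, and starts there were not searched. Cybb and Ncf1 are shown because they hold letters of sites for blood cell factors that are described further on, and Nox4 because it is the catalytic subunit of other cells. The windows lie at chrX:9469275-9469574 (minus strand), chr5:134229576-134229875 (minus strand) and chr7:87246399-87246698 (plus strand) in that order, and each is written 5′ to 3′ along its gene. Capitals mark matches on either strand to GAGGAA (a PU.1 core), GAAA, any 2 bases and GAAA again (an IRF pattern) or TGTGGT (a RUNX core).
Cybb: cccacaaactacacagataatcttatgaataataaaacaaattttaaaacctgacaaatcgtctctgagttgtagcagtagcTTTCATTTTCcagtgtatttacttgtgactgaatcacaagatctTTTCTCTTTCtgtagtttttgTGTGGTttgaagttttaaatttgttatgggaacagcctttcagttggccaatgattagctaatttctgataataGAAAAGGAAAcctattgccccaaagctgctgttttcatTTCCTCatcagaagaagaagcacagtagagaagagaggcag
Ncf1: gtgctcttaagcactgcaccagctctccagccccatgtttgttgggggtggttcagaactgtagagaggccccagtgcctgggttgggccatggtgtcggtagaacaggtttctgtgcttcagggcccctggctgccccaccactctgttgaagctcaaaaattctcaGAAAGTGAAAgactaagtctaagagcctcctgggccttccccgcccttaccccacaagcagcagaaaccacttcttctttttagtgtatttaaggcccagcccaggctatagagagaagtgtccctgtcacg
Nox4: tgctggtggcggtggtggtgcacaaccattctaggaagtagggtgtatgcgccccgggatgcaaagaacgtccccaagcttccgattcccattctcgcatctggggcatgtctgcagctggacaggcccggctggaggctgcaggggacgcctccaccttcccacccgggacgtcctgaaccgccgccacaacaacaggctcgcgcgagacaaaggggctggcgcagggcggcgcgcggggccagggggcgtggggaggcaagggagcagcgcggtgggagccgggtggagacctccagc

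The Cybb window held 3 matches to the IRF pattern, starting 168, 124 and 29 bases before the start, a RUNX core 103 bases before it and a PU.1 core on the minus strand from base 10 after it. The Ncf1 window held 1 IRF match, 82 bases before the start. The windows of Nox4 and of Cyba, which is not printed, held none of the 3 patterns. No match overlapped another. Among all 32851 promoter windows of the table, 3.44% held the IRF pattern, 28.3% the PU.1 core and 16.8% the RUNX core. GC content was 35.3% in the Cybb window, 54% in Ncf1, 60.7% in Cyba and 68.3% in Nox4. A match describes these letters only.

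The diet comparison asked which of these genes differed between high fat and low fat mice. In high fat mice 5 of the 6 genes were higher by limma (Benjamini-Hochberg adjusted p at most 0.05 over all genes), namely Cyba, Cybb, Ncf1, Nox4 and Ncf4, and none was lower. Rac2 did not pass. Over all 22180 genes 21.5% passed, 12.4% higher and 9.13% lower. The median difference of the 6 genes was 0.79 on the log2 scale, beside -0.001 over all genes tested. In the same 5 genes every high fat mouse lay above every low fat mouse, which was the case for 11.6% of all genes; in 9.15% every high fat mouse lay below, so that 20.7% had no overlap.

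In the membrane-bound pair, Cybb, the electron-carrying subunit (probe set 17540154), had log2 values of 11.72, 11.62, 11.69, 11.30 and 11.46 in high fat mice 1 to 5, against 11.12, 10.20, 10.72 and 10.62 in low fat mice 1 to 4. The diets did not overlap, and low fat mice spread more widely, with mouse 1 nearest to the high fat values and mouse 2 farthest. Cybb averaged 11.56 ± 0.18 (SD, n = 5) in high fat and 10.66 ± 0.38 (SD, n = 4) in low fat mice. The difference of 0.89 ± 0.16 (SE) was a 1.86-fold increase with a limma adjusted p of 0.00336.

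Cyba, the partner that stabilises both Cybb and Nox4 in the membrane (probe set 17513672), had log2 values of 11.22, 11.25, 11.37, 10.93 and 10.94 in high fat mice 1 to 5, against 10.29, 9.58, 10.01 and 9.70 in low fat mice 1 to 4. The gap between the lowest high fat mouse, mouse 4, and the highest low fat mouse, mouse 1, was wider than the SD of either diet. Its means were 11.14 ± 0.20 (SD, n = 5) in high fat and 9.90 ± 0.32 (SD, n = 4) in low fat mice. Cyba had the largest difference of the 6 genes, 1.24 ± 0.15 (SE) or 2.37-fold, with a limma adjusted p of 0.000352, and only 0.726% of all genes had a larger one.

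Among the cytosolic organisers, Ncf1, which brings the complex to the membrane (probe set 17453288), had log2 values of 8.83, 8.95, 8.71, 8.60 and 8.73 in high fat mice 1 to 5, against 8.39, 7.62, 7.85 and 7.70 in low fat mice 1 to 4. Low fat mouse 1 stood nearer to the lowest high fat mouse than to any other low fat mouse. The difference was 0.87 ± 0.14 (SE), 1.83-fold, with a limma adjusted p of 0.00188. Without low fat mouse 1 the difference of Ncf1 was 1.04.

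Ncf4, which binds phosphatidylinositol 3-phosphate on phagosomes (probe set 17312700), had log2 values of 8.61, 8.70, 8.75, 8.36 and 8.28 in high fat mice 1 to 5, against 8.14, 7.74, 8.04 and 7.74 in low fat mice 1 to 4. The diets were apart by a narrow gap, between high fat mouse 5 and low fat mouse 1. Ncf4 rose by 0.63 ± 0.12 (SE), 1.54-fold, with a limma adjusted p of 0.00492.

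Rac2, the Rac GTPase of blood cells that completes the active complex (probe set 17319037), had log2 values of 11.03, 11.09, 11.32, 10.92 and 10.84 in high fat mice 1 to 5, against 11.03, 10.53, 10.83 and 10.33 in low fat mice 1 to 4. The diets overlapped, since low fat mouse 1 lay above high fat mice 4 and 5 and level with mouse 1. Its difference of 0.36 ± 0.14 (SE) missed the threshold in limma (adjusted p = 0.112, range over the alternatives 0.0366 to 0.280), and a two-sided exact permutation test over the mice gave p = 0.0635. Without low fat mouse 1 the difference was 0.47 and passed (limma adjusted p = 0.0366).

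Nox4 (probe set 17479974) had log2 values of 7.35, 7.65, 7.53, 7.21 and 7.42 in high fat mice 1 to 5, against 6.84, 6.86, 6.62 and 6.60 in low fat mice 1 to 4. The diets did not overlap and the spread was small in both, with an SD of 0.17 in high fat and 0.14 in low fat mice. Nox4 was 1.63-fold higher, a difference of 0.70 ± 0.09 (SE) with a limma adjusted p of 0.000601. The low fat values lay just below the array medians over all genes, which ran from 6.91 to 6.98. Whether they lie above background was not determined, so the fold holds for the values as deposited. The exact permutation test gave its smallest possible p, 0.0159, for each of Cybb, Cyba, Ncf1, Ncf4 and Nox4.

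**Figure D1:**
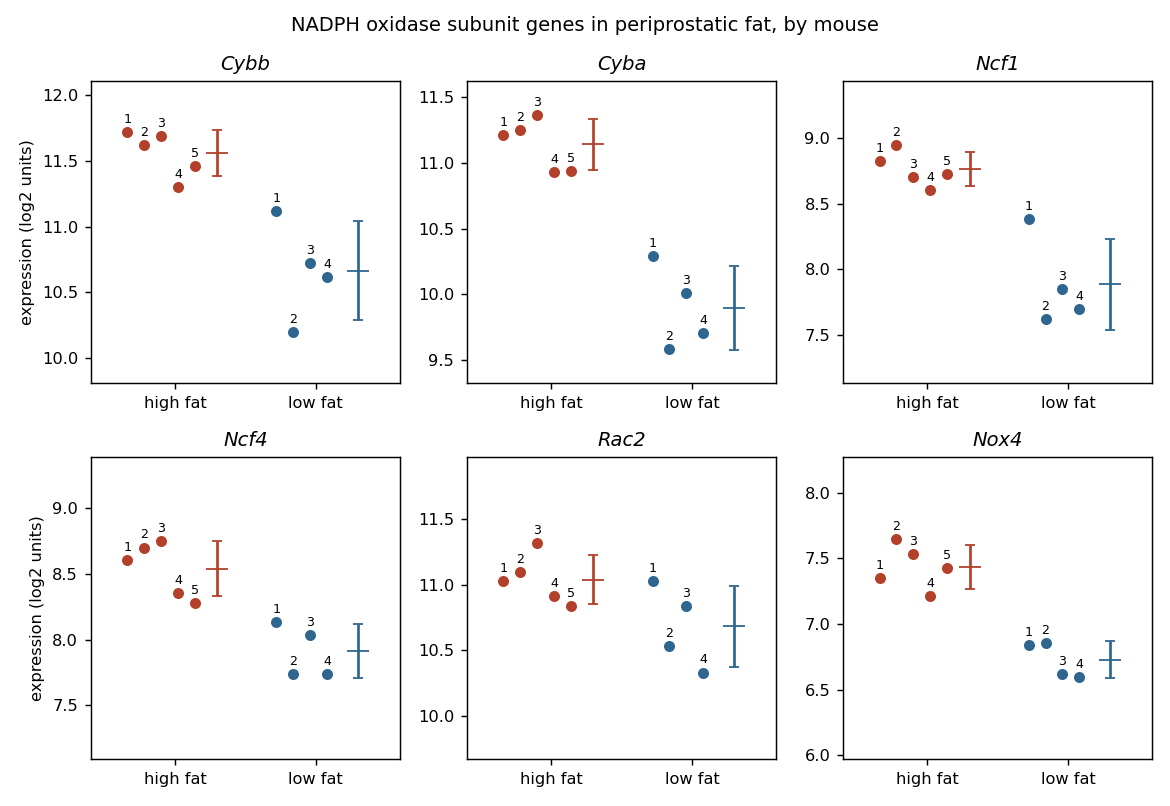
Log2 expression (vertical axis, of 1 height in every panel) of the 6 oxidase genes in high fat (red, n = 5) and low fat mice (blue, n = 4); points are mice labelled by number, and bars at the right of each group are the mean ± SD. The groups are apart in every panel except Rac2, where low fat mouse 1 at 11.03 lies among the high fat mice.

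The 6 genes did not share 1 size of diet difference. By size the order was Cyba (1.24), Cybb (0.89), Ncf1 (0.87), Nox4 (0.70), Ncf4 (0.63) and Rac2 (0.36), all on the log2 scale. All 15 pairs were compared by a two-sided exact permutation test of the within-mouse difference, adjusted over the 15 pairs, and 8 pairs differed, each at the smallest p the design allows (0.0159, adjusted p = 0.0298). Cyba differed from every one of the other genes: its difference exceeded that of Cybb by 0.35 (95% interval of the exact test 0.155 to 0.54) and that of Rac2 by 0.89 (0.715 to 1.055).

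The difference of Rac2 was also smaller than those of Cybb, Ncf1 and Ncf4, with a gap to Ncf4, its neighbour in the order, of 0.27 (95% interval 0.04 to 0.435). Rac2 and Nox4 differed by -0.35 (95% interval -0.77 to 0.035), which did not pass (exact permutation adjusted p = 0.167). Between the neighbours in the middle no difference passed. Cybb and Ncf1 differed by 0.02 (95% interval -0.21 to 0.28, exact permutation adjusted p = 0.825), Ncf1 and Nox4 by 0.17 (-0.24 to 0.54, adjusted p = 0.417), and Ncf4 and Nox4 by -0.08 (-0.4 to 0.265, adjusted p = 0.612). These intervals include gaps as large as some that passed.

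Within a diet the 5 phagocyte genes moved together from mouse to mouse. Low fat mouse 1 was the highest low fat mouse in Cybb, Cyba, Ncf1, Ncf4 and Rac2, by 0.22 (Ncf4) to 0.50 (Ncf1) above the low fat mean. Low fat mouse 2 was the lowest in Cybb, Cyba, Ncf1 and Ncf4, and low fat mouse 4 in Rac2. In high fat mice, mouse 4 was lowest in Cybb, Cyba and Ncf1, and mouse 5 in Ncf4 and Rac2.

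Nox4 followed another order in low fat mice: its highest value there, 6.86, came from mouse 2, in which Cybb was lowest. Mouse 1 was close behind at 6.84. In high fat mice Nox4 was lowest in mouse 4, as were Cybb, Cyba and Ncf1. Over the 9 mice, deviations from the diet means correlated at r = 0.69 to 0.94 between pairs of the 5 phagocyte genes, and at r = 0.20 (with Cybb) to 0.46 (with Ncf4) between Nox4 and these. Low fat mouse 2, with deviations of -0.47 in Cybb and 0.13 in Nox4, weighs on the coefficients with Nox4. They were not recomputed without that mouse, so how far Nox4 stands apart is uncertain. All these coefficients are descriptions over 9 arrays that share the scale of each array.

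**Figure D2:**
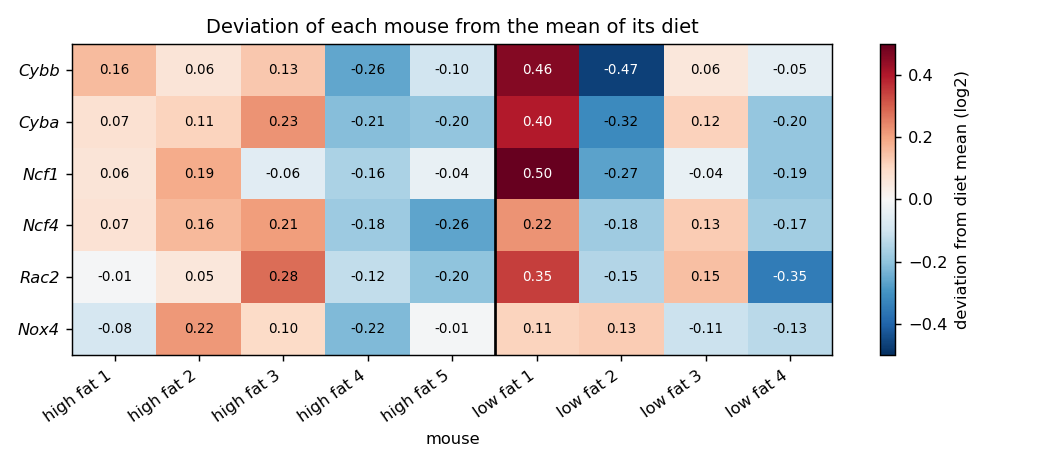
Deviation of each mouse (columns, high fat mice left of the line) from the mean of its diet in log2 units (colour and printed value) for each gene (rows). Low fat mouse 1 is above its diet mean in all 6 genes, and low fat mouse 2 is below it in the 5 phagocyte genes but 0.13 above it in Nox4.

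Most markers of macrophages, the phagocytes of fat tissue, were higher in high fat mice. Of 16 listed markers 11 were higher and 2 lower (Mertk and Timd4), and their median difference was 0.69. Adgre1, which encodes F4/80, was at 11.34 in high fat and 10.17 in low fat mice, the lysosomal gene Cd68 at 12.77 and 10.90, and the complement gene C1qb at 12.52 and 11.60. The mean log2 value over the list ran from 10.15 to 10.57 in high fat and from 9.54 to 9.79 in low fat mice, and the sum of the linear values from 30999 to 42628 and from 18676 to 22865. None of the 16 was near the bottom of the scale: the lowest group mean was 7.06, that of Aif1 in low fat mice. In whole tissue, more phagocytes and more RNA per phagocyte cannot be told apart.

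Set against the mean of the 16 markers in the same mouse, which differed by 0.70 between the diets, 2 of the 6 genes had a diet difference of another size by the exact permutation test adjusted over the 6 genes. The difference of Cyba was 0.54 above that of the macrophage mean (95% interval 0.275 to 0.855, adjusted p = 0.0476), and that of Rac2 0.35 below it (interval of the difference -0.615 to -0.08, adjusted p = 0.0476). Cybb (0.19, interval -0.19 to 0.6), Ncf1 (0.17, interval -0.145 to 0.485), Ncf4 (-0.07, interval -0.255 to 0.125) and Nox4 (0.002, interval -0.155 to 0.175) were not separable from it. The 16 markers themselves differed widely, from -0.44 (Timd4) to 1.89 (Ms4a7): Cd68 (1.87), Ms4a7 and Mpeg1 (1.45) exceeded Cyba, and Lyz2 (0.35) and Aif1 (0.34) were close to Rac2, so Cyba and Rac2 differed from the mean and not from every marker. No mouse could be left out of these tests, or of those between pairs, without losing every call, since 8 mice do not reach the adjusted threshold here: 0 pairs and 0 genes then passed, with 8 or 9 pairs and 2 or 3 genes at an unadjusted exact p under 0.05.

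**Figure D3:**
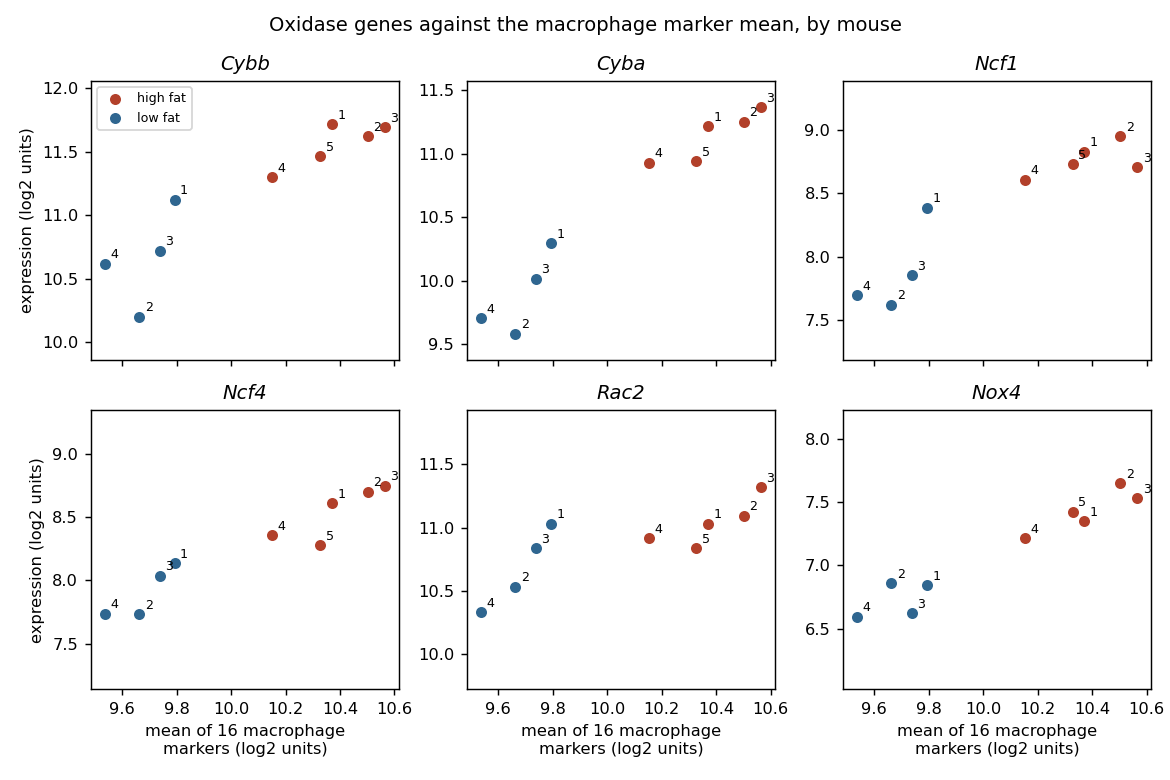
Log2 expression of each oxidase gene (vertical axis in log2 units, of 1 height in every panel) against the mean log2 value of 16 macrophage markers (horizontal axis) in high fat (red) and low fat mice (blue), with mouse numbers. In the Rac2 panel low fat mouse 1, at a marker mean of 9.79, is as high as high fat mouse 1 at 11.03, although every high fat mouse has a marker mean of 10.15 or more.

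Neutrophils also carry the phagocyte enzyme. Of 13 neutrophil markers 1 was higher, S100a8 (6.93 in high fat and 5.89 in low fat mice), and 3 were lower, Mmp9 (-1.70), Elane (-0.60) and Retnlg (-0.21). Ly6g, the defining surface marker, was at 4.79 in both diets, near the lowest values of the arrays (4.41 to 4.47), and the list mean ran from 6.06 to 6.24 in high fat and from 6.19 to 6.26 in low fat mice. The sum of the linear values ran from 1159 to 1362 in high fat and from 1612 to 1987 in low fat mice. Without Mmp9 that sum ran from 954 to 1109 in high fat and from 922 to 992 in low fat mice, a setting added after the data were seen. B cells carry it too, and of 10 lymphocyte markers 0 were higher and 1 lower (Ncr1, of natural killer cells, -0.49). The measured B cell genes did not pass: Ms4a1 (-1.13, limma adjusted p = 0.0503), Cd79a (-1.01, adjusted p = 0.102) and Cd79b (-0.85, adjusted p = 0.113). They and Ncr1 were the 4 of the 10 with an unadjusted limma p under 0.05. Without high fat mouse 3 or low fat mouse 1, 2 or 3, Ncr1 no longer passed (-0.40 to -0.50), and without high fat mouse 1 or 4 or low fat mouse 2, Ms4a1 did pass (-1.29 to -1.36). With all mice Ms4a1 also passed with quantile normalization repeated (adjusted p = 0.0389), centring (0.0375), dim genes left out (0.0295) or array weights (0.0464), so the count of lower markers depends on the processing.

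For Nox4 the other candidate cells are fibroblasts, smooth muscle, endothelium and fat cells. Of 10 fibroblast and progenitor markers 6 were higher, led by Lum (10.34 in high fat and 8.18 in low fat mice), with the collagen genes Col1a2 (10.41 and 9.58) and Col1a1 (11.02 and 9.76), and the list mean ran from 10.48 to 10.90 in high fat and from 9.66 to 10.05 in low fat mice. Of 10 adipocyte markers 8 were lower, led by Pck1 (11.18 and 13.00) and Slc2a4 (9.65 and 10.85), and Lep was higher. Of 8 smooth muscle markers 0 passed in either direction, 1 with an unadjusted limma p under 0.05, Acta2, the smooth muscle actin gene (11.97 in high fat and 11.62 in low fat mice). Acta2 passed as higher without low fat mouse 2 (0.52, limma adjusted p = 0.000634) and with array weights (0.41, adjusted p = 0.0293). The mean of the 8 markers ran from 8.30 to 8.47 in high fat mice and from 8.14 to 8.22 in low fat mice 1, 3 and 4, and reached 10.23 in low fat mouse 2. Myh11, a smooth muscle myosin gene, was at 8.48 in high fat and 8.97 in low fat mice and did not pass. Nox4 was 0.13 above its diet mean in low fat mouse 2, and without it the Nox4 difference was 0.75. The part of these cells in the Nox4 difference was not tested.

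Of 8 endothelial markers 1 was higher, Vwf (0.39), and 2 lower, Kdr (-0.26) and Robo4 (-0.25). Kdr no longer passed without any 1 of high fat mice 2 to 5 or low fat mice 2 to 4 (-0.20 to -0.28). With all mice kept, Kdr also missed the threshold with array weights (limma adjusted p = 0.0558) and with all rows (adjusted p = 0.059). None of 8 skeletal muscle markers and none of 8 prostate and seminal vesicle markers passed limma (0 and 0 at an unadjusted p under 0.05), with Myl1 at -0.39, Mylpf at 0.15, Svs6 at -0.10 and Msmb at -0.08. Skeletal muscle markers stood out in high fat mouse 1, at a mean of 8.83, while high fat mice 2 to 5 had means of 6.83 to 6.95. Without high fat mouse 1, Myl1 passed (-0.56), and the 6 oxidase genes had differences of 0.36 (Rac2) to 1.22 (Cyba). High fat mice 1 and 2 had slightly wider arrays (SD 1.87, against 1.83 to 1.84 in the other 7). With both left out the same 5 oxidase genes passed, with differences of 0.55 (Ncf4) to 1.18 (Cyba).

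The other oxidases and partner proteins did not move as a group: of 13 measured genes on that list 5 were higher, 2 lower and 6 did not pass, with a median difference of 0.001. The catalytic homologues Nox1 (-0.01) and Nox3 (-0.08) of colon and inner ear, the Nox1 activator Noxa1 (-0.02) and the thyroid oxidase Duox2 (-0.001) had group means between 5.38 and 6.02 in both diets, below the array medians, and did not pass. Duox1, a calcium-regulated oxidase of epithelia, was at 6.32 in high fat and 5.94 in low fat mice, a difference of 0.38 ± 0.09 (SE, limma adjusted p = 0.0118). Both of these means also lay below the array medians, and whether they lie above background was not determined. Duoxa1, the maturation factor that Duox1 needs to leave the endoplasmic reticulum, was at 9.01 in high fat and 7.72 in low fat mice, 2.43-fold higher (limma adjusted p = 0.000258). Both Duox1 and Duoxa1 passed without any 1 mouse.

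Sh3pxd2b and Sh3pxd2a encode Tks4 and Tks5, scaffold proteins related to Ncf1 that organise podosomes. Sh3pxd2b was at 9.44 in high fat and 8.22 in low fat mice, 2.32-fold higher (limma adjusted p = 3.6e-05), whereas Sh3pxd2a was lower, at 9.97 and 10.26 (adjusted p = 0.0191). Hvcn1, the proton channel that balances the charge moved by the oxidase, was 1.43-fold higher (0.51, adjusted p = 0.00405). Cybc1, a chaperone that the Cybb and Cyba pair needs in order to mature, was 1.27-fold higher (0.34, adjusted p = 0.0305), and Poldip2, a Nox4 regulator, was lower (-0.28, adjusted p = 0.0337).

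The calls of Cybc1, Poldip2 and Sh3pxd2a lay near the threshold and were lost under several alternatives. Cybc1 no longer passed without high fat mouse 2 or 3 or low fat mouse 2, 3 or 4 (0.29 to 0.35, limma adjusted p 0.0599 to 0.0869) or without high fat mice 1 and 2 together (0.25). Poldip2 no longer passed without high fat mouse 3, 4 or 5 or low fat mouse 1, 2 or 4 (-0.21 to -0.29), and Sh3pxd2a without low fat mouse 2 or 3 (-0.27 and -0.28) or high fat mice 1 and 2 together (-0.30). With all mice kept, Poldip2 also missed the threshold with array weights (-0.26, adjusted p = 0.0506). The ubiquitous GTPase Rac1 (0.08, at 11.74 in high fat and 11.66 in low fat mice) and Rac3 (0.001) did not pass. The difference of Rac3 turned negative with quantile normalization (-0.04) or centring on array medians (-0.04).

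Genes that act upstream of the oxidase, from receptors to kinases and exchange factors, were higher in 17 of 19 measured cases and lower in none, with a median difference of 0.68. Over all genes 12.4% were higher. The macrophage markers, 11 of 16 higher, had a median difference of 0.69, so the median does not set the upstream list apart from them. The largest was that of C5ar1, the receptor for complement fragment C5a, at 8.68 in high fat and 7.06 in low fat mice (3.06-fold, limma adjusted p = 0.000381). Itgb2, the beta chain of the leukocyte integrins, was 2.12-fold higher, Fcer1g, the signalling chain of Fc receptors, 1.94-fold, and Prkcd, a protein kinase C that phosphorylates Ncf1, 2.06-fold. The genes that missed the threshold were Pik3cd (0.32, adjusted p = 0.0518) and Plcg2 (0.32, adjusted p = 0.051), named after their values were seen. With high fat mice 1 and 2 left out together 11 of the 19 were higher.

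Of 9 measured transcription factors known for oxidase genes, 3 were higher, 0 lower and 6 did not pass, with a median difference of 0.18. Spi1, which encodes PU.1, was at 9.73 in high fat and 8.59 in low fat mice (2.20-fold), Irf8 at 9.37 and 8.24 (2.18-fold) and Runx1 at 9.22 and 8.28 (1.91-fold), with limma adjusted p of 0.000381, 0.000173 and 0.00018. The PU.1 and RUNX cores and the IRF pattern, which several IRF proteins share, stand in capitals in the Cybb window. Irf1, another factor of that family, was at 8.21 in high fat and 8.48 in low fat mice and did not pass (-0.27, adjusted p = 0.215). Whether these factors take part in the oxidase gene differences was not tested. Hoxa9, the other named factor, was at -0.27 and did not pass (adjusted p = 0.0971). Without low fat mouse 3, Hoxa9 passed (-0.36), and 2 factors then counted as lower.

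The list of superoxide and peroxide handling was divided, with 5 of 17 measured genes higher, 3 lower and 9 not passing, and a median difference of 0.03. It holds enzymes that act on superoxide or peroxide and also genes that do not, among them Hmox1, Gclm and Nfe2l2. The lower genes were Gpx3, Sod1 and Cat (-0.19). The higher ones were Sod2 (0.25), Txnrd1 (0.34), Hmox1, Gclm and Nfe2l2 (0.21). Hmox1, the stress-induced haem oxygenase, was at 10.33 in high fat and 8.80 in low fat mice (2.89-fold, limma adjusted p = 7.74e-05), and Gclm, the regulatory subunit of glutathione synthesis, was 1.23-fold higher. Gpx3, the secreted glutathione peroxidase, fell by 0.61 ± 0.08 (SE) to 9.11 in high fat mice, against 9.72 in low fat mice (adjusted p = 0.000529). Sod1, the cytosolic superoxide dismutase, fell by 0.29 (adjusted p = 0.00119). The number of lower genes was 5 with quantile normalization repeated or arrays centred on medians, and the number of higher genes was 3 without low fat mouse 3 and 2 without high fat mice 1 and 2.

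**Figure D4:**
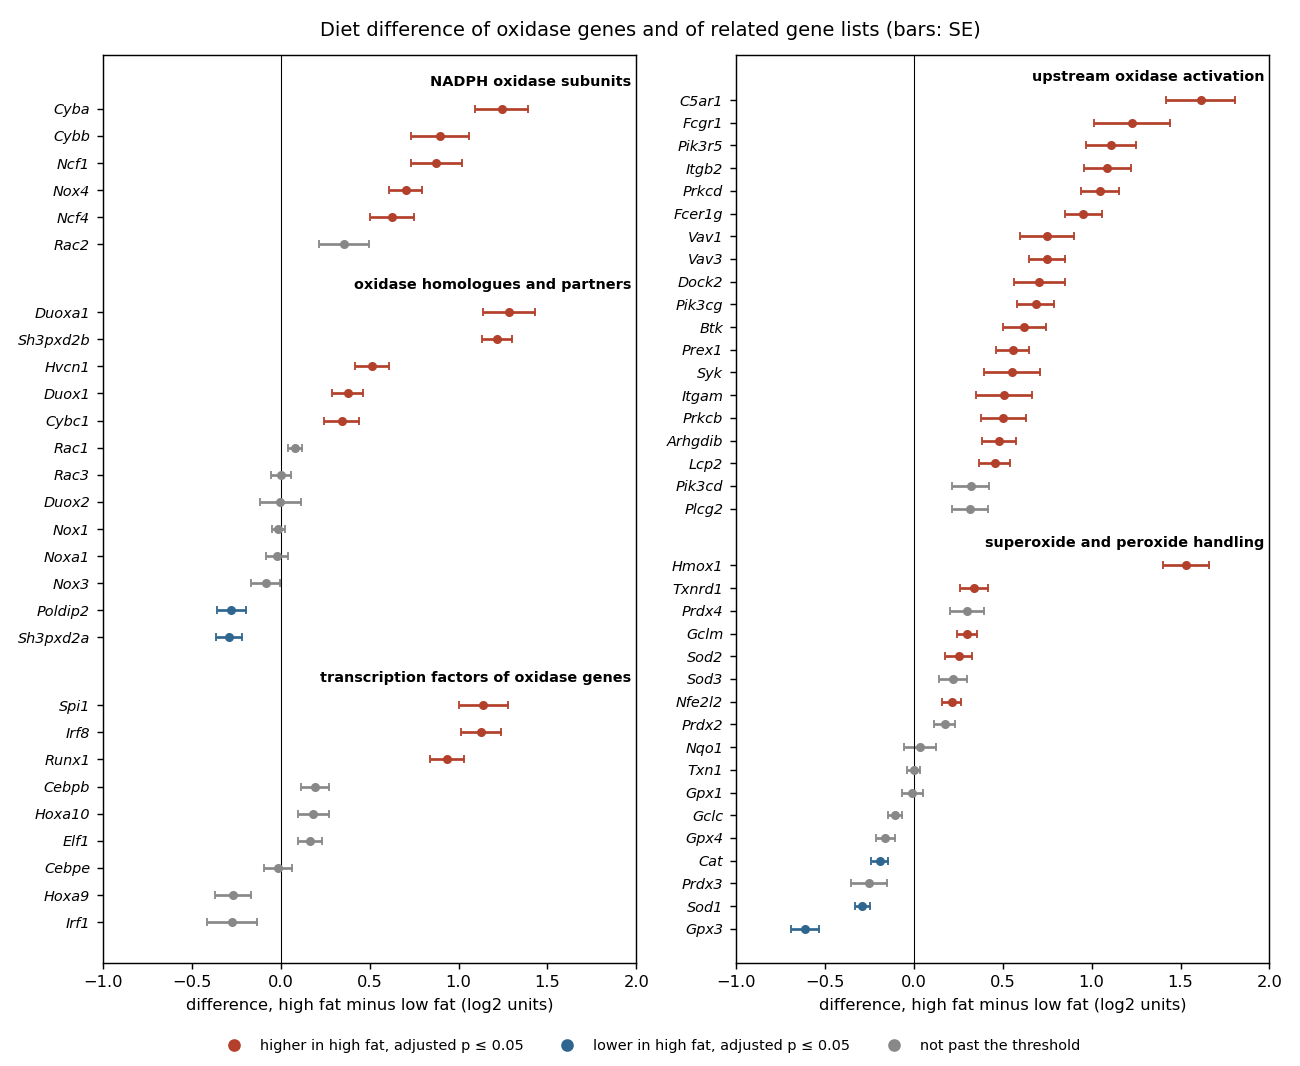
Difference of high fat minus low fat mice (horizontal axis, log2 units) with its limma SE for the oxidase genes and 4 related gene lists; red and blue mark genes past the adjusted p threshold that were higher or lower in high fat mice, grey the rest. The upstream genes lie to the right of 0 throughout, from 0.32 to 1.61, whereas the homologues and partners run from -0.29 to 1.28.

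The genes whose profiles over the 9 mice lay nearest to each oxidase gene were found by the root mean square distance between values taken relative to the gene's own low fat mean. Nearest to Cybb were Plek (0.072), the pleckstrin gene, Clec4d (0.086), a myeloid C-type lectin receptor, and Ctsl (0.099), a lysosomal protease. Nearest to Cyba were Nckap1l (0.081), Capg (0.10) and Lcp1 (0.11), which encode regulators of actin filaments in blood cells or macrophages.

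Nearest to Ncf1 were Plaur (0.086), the urokinase receptor, the chemokine gene Ccl6 (0.098) and Rassf4 (0.12). Nearest to Ncf4 were Btk (0.058), a kinase of B cells and myeloid cells that is also on the upstream list, the cannabinoid receptor gene Cnr2 (0.070) and Tlr6 (0.074). For Rac2 the distances were about as large as for Ncf1, with Gmip, Snx20 and Slc43a2 each at 0.10. Nearest to Nox4 were Trerf1 (0.074), the mitotic kinase gene Aurka (0.081) and the matrix metalloproteinase gene Mmp19 (0.084). Among the oxidase genes themselves Cybb and Ncf1 were nearest to each other (0.13) and Cyba and Rac2 farthest apart (0.67).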

How the data were processed

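The deposited values are log2 expression per probe set, and the submitters' processing notes list RMA, limma and R 3.5.0 without saying what each did. Genome build, annotation version and row filters: not given in the sources used here. This table holds 33793 rows and 9 arrays, 1 per mouse, so p-values measure the spread between mice. Of the rows, 23521 had exactly 1 symbol in the platform annotation; the probe set with the highest mean was kept for each gene, which left 22180 genes. Symbols were checked by Entrez identifier against GRCm38.p6 (23328 matched, 0 changed), which served for names, gene order and the promoter windows only. Diet was tested with limma 3.58.1 in R 4.3.3 (lmFit and eBayes, no covariate) on the deposited log2 values, adjusted over all genes at 0.05. SE is the moderated standard error, and a fold is 2 to the power of the difference. Pairs of genes and the comparison with macrophage markers used two-sided exact permutation over all 126 assignments of mice; their 95% intervals hold the shifts that this test keeps.

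Genes were named by rule: all 6 oxidase genes, all measured homologues and partners, the 4 smallest p of each other pathway list, the 2 smallest p of each marker list with Adgre1, Cd68, S100a8 and Ly6g, and the 3 nearest profiles of each oxidase gene, passing over unnamed gene models. Other named genes were added after their values were seen. Members, lists and motifs were chosen with earlier results of these data known. Of 161 list entries 149 were measured. In a simulated diet comparison over 22180 genes, 19 of 50 genes changed by 0.25 were recovered, 42 of 50 at 0.5, 49 of 50 at 1 and 49 of 50 at 2 (log2), with 7 false calls. Only 200 genes were changed in it and 166 were called, against 4768 called in the data. The adjusted threshold therefore cut at another p, and these shares do not give the recovery in the data. Alternatives covered normalization, centring, a filter on dim genes, the choice of probe, the variance model, array weights, mouse number as a block, all rows, and leaving out mice. The number of arrays limits the precision.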

Additional observations from a re-analysis of the deposited data

Results flagged for a closer look

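A mouse was flagged where its gap to the nearest mouse of its diet exceeded Dixon's 95% critical share of the range, which chance does in about 1 of 20 groups; 12 of 172 groups were flagged and none of them concerned the 6 oxidase genes. Low fat mouse 2 was high in Myh11 (10.35, others 8.47 to 8.53) and in the smooth muscle marker mean (10.23). High fat mouse 1 was high in Myl1 (9.80), Mylpf (5.98) and the skeletal muscle marker mean (8.83), and low fat mouse 4 was high in the skeletal muscle marker mean (7.92, others 6.96 to 7.11). Low fat mouse 4 was also high in Mmp9 (10.06, others 9.33 to 9.43) and low in C1qb (11.38, others 11.65 to 11.70) and in the fibroblast and progenitor marker mean (9.66, others 10.00 to 10.05). Low fat mouse 1, the highest low fat mouse in 5 of the oxidase genes, was low in Sod1 (13.02, others 13.11 to 13.12) and in the adipocyte marker mean (12.28, others 12.36 to 12.37). High fat mouse 5 was high in S100a8 (7.43, others 6.75 to 6.83).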

How the results depend on the processing

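Cybb, Cyba, Ncf1, Ncf4 and Nox4 kept their direction and passed limma under every alternative run. Leaving out 1 mouse, their differences ran from 0.74 to 1.05, 1.14 to 1.38, 0.78 to 1.04, 0.57 to 0.70 and 0.65 to 0.76 in that order, and that of Rac2 from 0.24 to 0.47. With the mouse number as a replicate block, which leaves mouse 5 without a partner, Rac2 was at 0.41 and passed (limma adjusted p = 0.0452). The other oxidase genes kept their calls with the block. Poldip2 (-0.27), Sh3pxd2a (-0.26), Ncr1 (-0.41) and Kdr (-0.21) lost theirs. With the block 4036 genes changed by diet, against 4768 without it. The numbers are not known to pair mice: same-numbered mice correlated at 0.05 to 0.13 in their deviations, and only low fat mouse 2 correlated best with its own number. Genes changed by diet numbered 3759 to 4364 without 1 mouse and 3210 without high fat mice 1 and 2; the share of calls that were higher was 57.5%, against 45.6% with quantile normalization repeated and 42.2% with arrays centred on medians.

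Without any 1 mouse 0 pairs and 0 comparisons with macrophage markers passed, because the smallest p is then larger; without high fat mice 1 and 2 no p under 0.05 can be reached, so these were not run. Every pair that had passed kept its sign. Signs turned in differences near 0 that had not passed. With 1 mouse left out, Cybb minus Ncf1 ran from -0.045 to 0.069, Cybb minus Nox4 from -0.0071 to 0.31, Ncf4 minus Nox4 from -0.18 to 0.0014, and Nox4 minus the macrophage mean from -0.052 to 0.051 (-0.0038 with quantile normalization). Likewise Nox1 ran from -0.032 to 0.0020, Noxa1 from -0.054 to 0.011, Duox2 from -0.062 to 0.12, Rac3 from -0.037 to 0.026, Mylpf from -0.054 to 0.22 and Ly6g from -0.053 to 0.071. Array weights gave 0.041 for Duox2 and 0.018 for Ly6g, quantile normalization -0.044 for Rac3 and 0.031 for Ly6g, centring -0.043 for Rac3, and the block 0.020 for Ly6g. Without high fat mice 1 and 2, Noxa1 was at 0.039, Duox2 at 0.033 and Mylpf at -0.030. The cause of these changes was not tested. Beside the 6 oxidase genes, 147 values lost a call and 12 gained one in the same direction, over the pairs, the comparisons with macrophage markers and the genes that were run; Robo4, Elane, Retnlg, Col1a1, Lep, Pik3cd and Plcg2 were among those not run.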

Other observations

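Ncf4 and Rac2 lie on the same chromosome in the reference assembly (GRCm38.p6, gene order only), with 16 annotated genes between them, 10 of which were measured. Of these 10, 2 were higher in high fat mice and 2 lower by limma, and 6 did not pass; the genes named here were chosen by position and call after the data were seen. Csf2rb2, a receptor chain for interleukin 3, was at 9.17 in high fat and 8.34 in low fat mice (1.78-fold, adjusted p = 0.00041), while its close copy Csf2rb was at 8.08 and 8.005 and did not pass (adjusted p = 0.469). Probes of such copies can share signal, so which of them changed is uncertain. C1qtnf6, a secreted protein related to adiponectin, was at 7.73 in high fat and 7.00 in low fat mice (1.66-fold). Tst, the mitochondrial sulfur transferase rhodanese, was at 8.27 in high fat and 10.10 in low fat mice, 3.55-fold lower (adjusted p = 0.000445), and Mpst, its adjacent homologue, was 1.30-fold lower. The region held genes that moved in opposite directions.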
